A study of Mus musculus with 12 samples.

Results

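The replication-dependent histone genes are the clustered genes that make the bulk of the histones laid down behind the replication fork. All protein-coding genes of the GENCODE M21 annotation whose symbol starts with Hist1h, Hist2h, Hist3h or Hist4h were taken, which gave 67 of 21938 protein-coding genes on the assembled mouse chromosomes. They held 6 genes of linker histone H1, 18 of H2A, 18 of H2B, 12 of H3 and 13 of H4. A pair of genes that point away from each other with 5′ ends at most 1000 bp apart shares a promoter and was counted once, so the 67 genes formed 54 promoter units of 21205 in all. In 1 of the 14 shared promoters, Bola1/Hist2h2ab, the partner is not a histone gene. Hist1 lies on chromosome 13 (54 genes), Hist2 on chromosome 3 (10 genes), Hist3 on chromosome 11 (2 genes) and Hist4h4 alone on chromosome 6.

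The assay was ATAC-seq, where transposase inserts sequencing adapters into accessible DNA, and there were 4 groups of 3 libraries. These were 4T1 mammary carcinoma cells treated with decitabine (DAC) at 1 µM for 48 h, untreated 4T1 cells, B16F10 melanoma cells treated with DAC at 0.1 µM for 48 h, and untreated B16F10 cells. DAC is a cytidine analogue that replicating cells incorporate and that depletes DNA methyltransferase activity. The dose differed between the lines, and line and dose cannot be told apart in any comparison of treated cells. In all groups dead cells had been taken out with microbeads before the nuclei were transposed. The labels do not tell whether the 3 libraries of a group are separate cultures, and the p-values refer to library-to-library spread that could be purely technical.

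Replication-dependent histone genes are switched on together as cells enter S phase. Their promoters are bound by NPAT and class-specific factors at nuclear histone locus bodies, and their mRNAs end in a conserved stem-loop bound by SLBP instead of a poly(A) tail. The genes are short, have no introns in most cases and sit in dense clusters, and many are near copies of one another. Because the cells were profiled in bulk, fewer cells with an open promoter and less opening per cell cannot be told apart.

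Some promoters on which the comparisons turn show how the sequence differs between the classes. The sequences are from the RefSeq GRCm38.p6 assembly, the build that mm10 names. For a shared promoter the bases between the 5′ ends of both genes are given on the plus strand, and for a gene alone the 250 bases before its 5′ end are given on its own strand. Capitals mark exact matches, on either strand, of the CAAT box CCAAT, the TATA box TATAAA, the octamer ATTTGCAT, the AC box AAACACA known from H1 promoters, the GC box GGGCGG, TGACGTCA, TTTGGCGC and TTTCGCGC. Matches of these motifs do not overlap one another in the sequences shown.
Hist1h2ac/Hist1h2bc, chr13:23683949-23684198, plus strand, a shared H2A and H2B promoter open in every library: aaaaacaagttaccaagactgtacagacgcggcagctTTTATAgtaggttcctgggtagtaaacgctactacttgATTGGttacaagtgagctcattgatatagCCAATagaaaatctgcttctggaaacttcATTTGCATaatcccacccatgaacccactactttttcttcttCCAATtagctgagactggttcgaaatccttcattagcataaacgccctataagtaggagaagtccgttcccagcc
Hist1h2ap/Hist1h2br, chr13:21833508-21833742, plus strand, a shared promoter of the Hist1 block that separates the lines: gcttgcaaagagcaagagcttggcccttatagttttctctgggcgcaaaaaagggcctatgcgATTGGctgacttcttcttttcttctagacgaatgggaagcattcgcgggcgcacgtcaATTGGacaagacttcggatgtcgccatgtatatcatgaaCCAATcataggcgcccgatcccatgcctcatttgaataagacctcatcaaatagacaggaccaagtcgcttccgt
Hist1h4j, chr13:21734814-21735063, plus strand, an H4 promoter of the same block: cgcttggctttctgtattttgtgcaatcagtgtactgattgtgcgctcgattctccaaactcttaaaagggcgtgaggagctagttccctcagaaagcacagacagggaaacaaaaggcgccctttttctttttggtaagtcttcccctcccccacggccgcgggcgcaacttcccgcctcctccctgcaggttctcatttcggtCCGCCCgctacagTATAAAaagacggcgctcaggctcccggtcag
Hist4h4, chr6:136804416-136804665, minus strand, the H4 gene outside the clusters: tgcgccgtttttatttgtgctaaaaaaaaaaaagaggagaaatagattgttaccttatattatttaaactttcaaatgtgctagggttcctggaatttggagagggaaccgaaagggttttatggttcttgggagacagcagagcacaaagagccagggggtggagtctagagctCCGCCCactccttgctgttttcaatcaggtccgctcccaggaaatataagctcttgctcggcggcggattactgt
Hist1h4c, chr13:23698455-23698704, minus strand, an H4 gene whose fold enrichment and height ranks differed between the 4T1 arms in opposite directions: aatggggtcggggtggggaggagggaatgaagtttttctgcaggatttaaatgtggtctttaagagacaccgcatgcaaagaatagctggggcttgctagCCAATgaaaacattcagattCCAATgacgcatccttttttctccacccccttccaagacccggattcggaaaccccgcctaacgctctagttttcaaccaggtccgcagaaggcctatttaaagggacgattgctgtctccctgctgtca
Hist1h1e, chr13:23622559-23622808, minus strand, an H1 gene with the AC box: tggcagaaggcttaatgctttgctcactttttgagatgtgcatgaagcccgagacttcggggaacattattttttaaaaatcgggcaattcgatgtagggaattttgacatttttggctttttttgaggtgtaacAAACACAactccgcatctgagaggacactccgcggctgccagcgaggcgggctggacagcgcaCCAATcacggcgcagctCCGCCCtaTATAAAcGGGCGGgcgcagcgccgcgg
Hist1h1t, chr13:23695564-23695813, plus strand, the testis-type H1 gene: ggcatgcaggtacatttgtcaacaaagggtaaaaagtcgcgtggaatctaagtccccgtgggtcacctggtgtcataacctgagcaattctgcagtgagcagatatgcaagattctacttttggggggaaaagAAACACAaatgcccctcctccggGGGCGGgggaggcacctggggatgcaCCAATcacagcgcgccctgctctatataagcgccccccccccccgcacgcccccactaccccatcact

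The motif content followed the histone class. CCAAT was present within 250 bp before to 50 bp after the 5′ end in 56 of 67 histone genes (83.6%), against 38.9% of the other 21871 protein-coding genes. All 18 H2A and all 18 H2B genes had it, against 4 of 13 H4 genes. ATTTGCAT, the octamer known from H2B promoters, occurred in 7 H2A and 8 H2B genes and in no H1, H3 or H4 gene, which made 22.4% of the histone genes, against 1.51% of the other genes. AAACACA occurred in 4 of 6 H1 genes, among them Hist1h1e and Hist1h1t, against 6.37% of the other genes. TATAAA was found in 55.2% of histone genes, against 12.5% of the other genes. TTTCGCGC, an E2F-type site, was found in 9 histone genes (13.4%), all H2A or H2B, against 0.311% of the other genes. All of these but Hist1h2af belong to shared H2A and H2B promoters. GGGCGG was about as frequent in histone genes (41.8%) as in the other genes (43.0%), and it stood in 10 of 13 H4 genes and 2 of 12 H3 genes. Motif shares count genes, so the same site of a shared promoter can count for both of its genes. These matches describe letters in a window and not binding.

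CpG content did not set the histone promoters apart. The median was 3.67 CpG per 100 bp in histone genes and also 3.67 in the other protein-coding genes. The 3′ mark of the class was nearly universal. A 16-base match to the histone stem-loop pattern lay within 200 bp after the coding end in 62 of 67 histone genes (92.5%), against 0.174% of the other genes. The most frequent form, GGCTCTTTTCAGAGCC, stood in 38 genes, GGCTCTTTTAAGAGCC in 9 and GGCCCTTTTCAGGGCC in 8, Hist4h4 among the last. The 5 annotated genes with no match in that window were Hist2h2be, Hist1h2an, Hist1h2bp, Hist1h2bq and Hist1h2br.

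**Figure D1:**
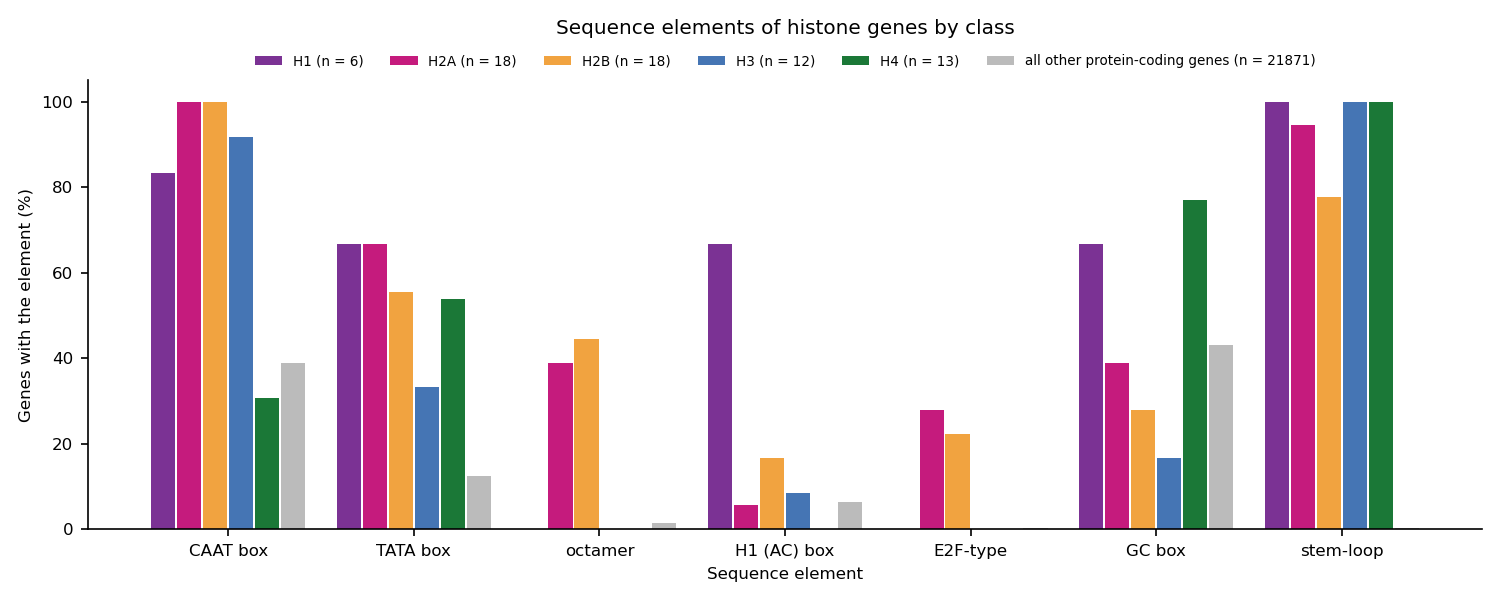
Share of genes (%, vertical axis) that hold each sequence element (horizontal axis), by histone class, with the other protein-coding genes in grey; bars are counts over genes and carry no error. The CAAT box was in all H2A and H2B genes and in 4 of 13 H4 genes, the octamer was in H2A and H2B genes alone, and the stem-loop was in 62 of 67 histone genes, against 0.174% of the others.

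The peak lists, 1 per library, held 108083 to 118603 peaks in 4T1 DAC, 89780 to 94229 in 4T1 untreated, 54032 to 58468 in B16F10 DAC and 49622 to 53316 in B16F10 untreated libraries. Read totals are not among the values used here, so depth per library is known only through the genome background below. Each peak carries the authors' fold enrichment, the ratio of the summit to its local background, used below to describe peaks and to rank promoters within a library. Fold enrichment and p-value together return the summit pileup, the local background and the background of the whole genome under a Poisson model. The pileup came out whole, within 0.05, for 99.4% to 99.99% of the peaks of each library. The genome background was 5.28 to 6.5 reads in 4T1 DAC and 4.01 to 4.43 in 4T1 untreated libraries, and 1.60 to 2.00 in B16F10 DAC and 1.66 to 1.80 in B16F10 untreated libraries. This background rises with read depth and was higher in every 4T1 than in every B16F10 library. Summit height is given below as a multiple of that background. Its median over all promoter units with a peak was 43.0 in 4T1 DAC and 65.4 in 4T1 untreated libraries. In B16F10 it was 68.5 in DAC and 83.3 in untreated libraries. Heights were thus lower in DAC at promoters in general, and the arms are compared by rank. Of the marker promoters, all 8 mammary epithelial ones were called in every 4T1 library, and 7 of 8 melanocyte ones, all but Tyr, in every B16F10 library. Mitf and Pmel were also called in 4T1, and Elf3 in B16F10, but the values at Pmel equal those at Cdk2 in every group.

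More histone promoters were open in 4T1 than in B16F10. A peak overlapped the promoter window, 1000 bp to either side of the 5′ ends, at 53 of 54 units in each 4T1 DAC library and at 52 in each 4T1 untreated library. In B16F10 the numbers were 37, 37 and 36 units in DAC libraries and 42, 45 and 39 in untreated libraries. All 4T1 libraries lay above all B16F10 libraries. The 4T1 libraries also had more peaks and a higher genome background, and the part of depth in the calls was not tested. Over all promoter units the called share was 60.4% ± 0.639 in 4T1 DAC and 55.1% ± 0.231 in 4T1 untreated libraries, and 48.9% ± 0.441 in B16F10 DAC and 48.2% ± 0.199 in B16F10 untreated libraries (SD, n = 3 each). Neighbouring units often had the same peak, so the calls rested on 40 distinct peaks in each 4T1 DAC library, 38 or 39 in 4T1 untreated, 27 or 28 in B16F10 DAC and 29 to 34 in B16F10 untreated libraries.

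A stricter reading, in which the 5′ end itself had to lie inside a peak, gave the same order of the lines and removed the gap between the arms in B16F10. It counted 62 of 67 genes in each 4T1 DAC library and 60 in each 4T1 untreated library. In B16F10 it counted 39, 40 and 38 genes in DAC libraries and 38 in each untreated library. The share of other protein-coding genes so covered was 52.6% in 4T1 DAC, 50.3% in 4T1 untreated, 44.7% in B16F10 DAC and 44.3% in B16F10 untreated libraries.

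In B16F10, 36 of the 54 units were called in all 6 libraries and 8 in none, against 52 in all and 1 in none in 4T1. Of all 21205 promoter units, 9868 were called in all 6 B16F10 libraries and 11232 in all 6 4T1 libraries. Both lines thus had a larger called share at histone units than at promoters in general. Most of the difference between the lines at histone units lay in one stretch of neighbouring genes. The first Hist1 block, chr13:21715143-21834743 in mm10, holds 13 promoter units and 18 genes from Hist1h2bl to Hist1h2br. In 4T1 all 13 units were called in all 6 libraries, with mean heights of 47.2 to 122 times the genome background in DAC and 71.7 to 141 times in untreated libraries. In B16F10 only Hist1h4j was called in all 6 libraries, and the other 12 units gave 2 peaks in the DAC libraries together and 16 in the untreated libraries together. Peaks covered 17.5 to 18.8 kb of the block in 4T1 DAC and 19.1 to 19.6 kb in 4T1 untreated libraries, against 1.34 to 3.16 kb in B16F10 DAC and 1.705 to 3.06 kb in B16F10 untreated libraries.

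**Figure D2:**
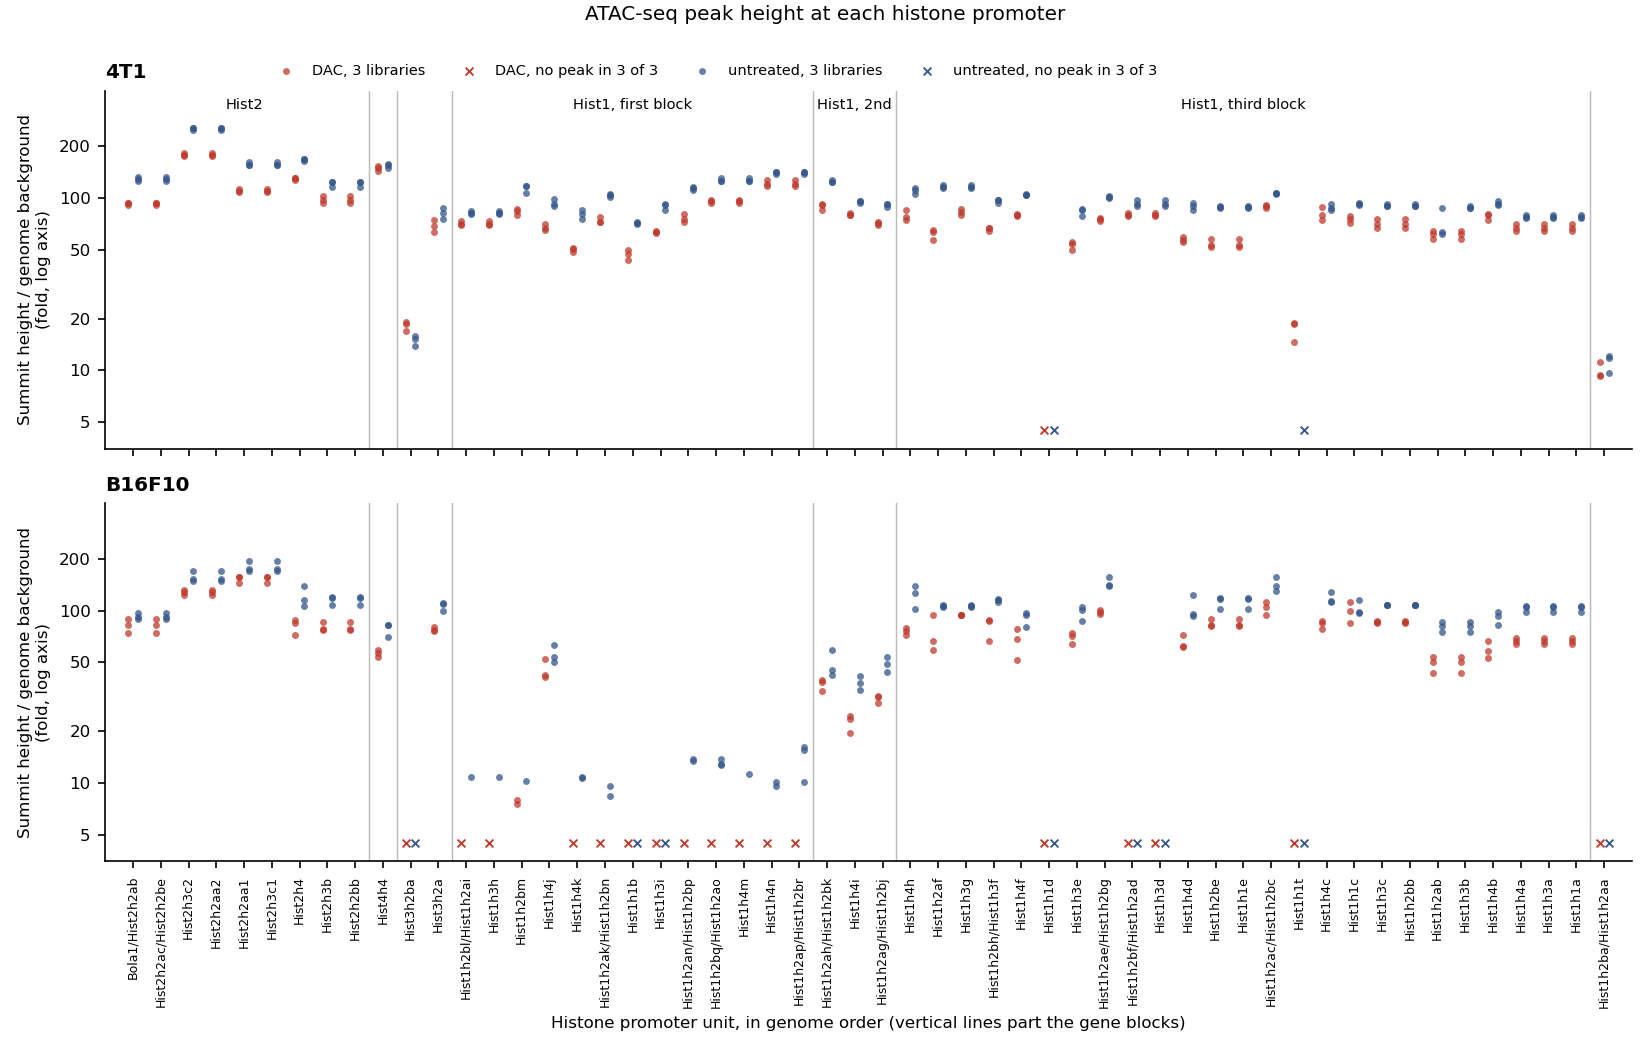
Summit height over genome background (fold, log axis) at each of the 54 histone promoter units in genome order, with 4T1 above B16F10; each point is 1 library, and a cross marks a unit with no peak in any of the 3 libraries of a group. In 4T1 the units of the first Hist1 block stand between 44.0 and 143 times the background, and in B16F10 these units, Hist1h4j excepted, lack a peak or reach at most 16.2.

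The B16F10 untreated peaks at those 12 units were short and lay on repeated sequence. The 16 peaks of the untreated libraries, numbering 5, 8 and 3 by library, were 195 to 302 bp wide, and every 32-base word in all 16 occurs elsewhere in the genome. Their heights were 8.42 to 16.2 times the genome background. The 2 peaks of the DAC libraries, both at Hist1h2bm, were at most 1031 bp wide, with 60.9% and 54.9% repeated words. In 4T1 the same 12 units had 27 peaks in each arm, with a median width of 1179 bp in DAC and 1216 bp in untreated libraries, and none of these 54 peaks consisted wholly of repeated words. Reads of near-identical gene copies can be placed at the wrong copy, so the values of the repeated promoters are uncertain. Over whole windows the share of repeated words was 100% at Hist1h2bq/Hist1h2ao and at Hist1h2ap/Hist1h2br, 95.8% at Hist1h4m, 95.7% at Hist1h4n and about 80% at Hist2h3c1 (80.6%) and Hist2h3c2 (79.6%).

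Hist1h4j, one of many genes for the H4 protein, differed from its neighbours in B16F10. Its peak there stood at 52.4, 41.4 and 42.4 times the genome background in DAC libraries and at 50.5, 53.5 and 63.3 times in untreated libraries. It was 583 to 754 bp wide and its near edge ended 319 to 502 bp before the 5′ end, with at most 2.52% repeated words. In 4T1 the Hist1h4j peak was 1728 to 1744 bp wide and covered the 5′ end in all 6 libraries, at 70.7, 65.0 and 67.3 times in DAC and 93.2, 90.8 and 99.5 times in untreated libraries. So the 5′ end of Hist1h4j lay in a peak in 6 of 6 4T1 and in 0 of 6 B16F10 libraries, and its promoter sequence shown above was not covered in B16F10.

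**Figure D3:**
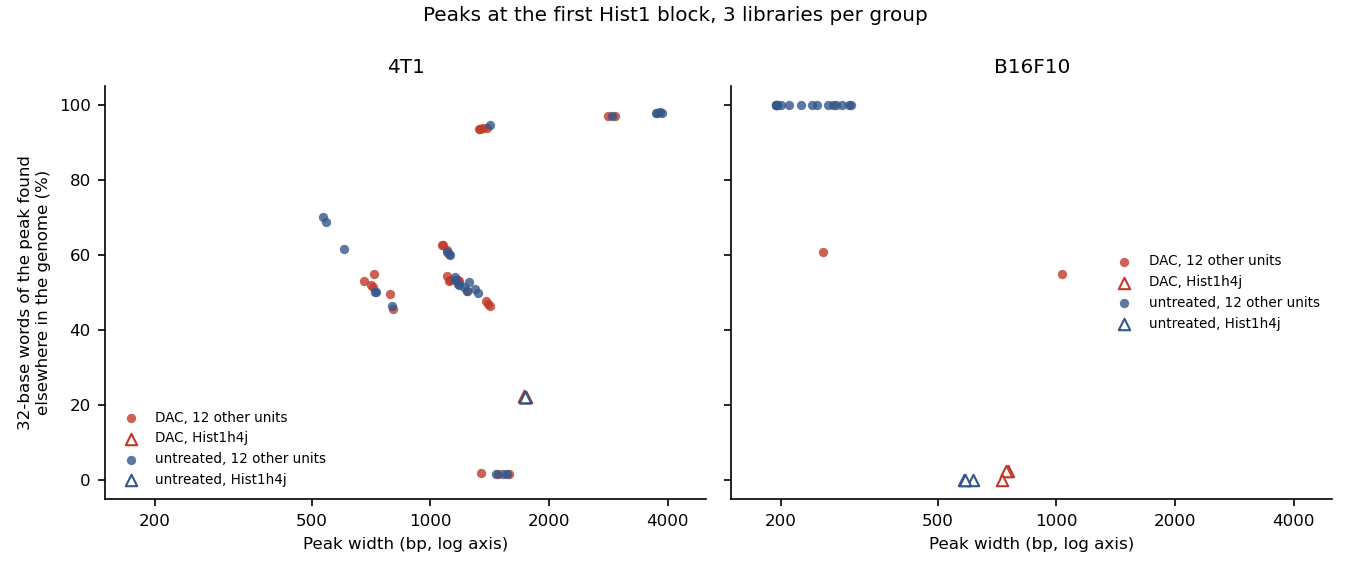
Width (bp, log axis) of each peak called at the first Hist1 block against the share of its 32-base words that occur elsewhere in the genome (%), in 4T1 on the left and B16F10 on the right; each point is 1 peak of 1 library, and triangles are Hist1h4j. The 16 B16F10 untreated peaks outside Hist1h4j all lie at 100% and at most 302 bp, whereas the 4T1 peaks of these units are 535 to 3874 bp wide.

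The second Hist1 block, 5 genes around Hist1h4i at chr13:22034568-22044214, was open in all 12 libraries but lower in B16F10. Hist1h4i reached 81.7, 80.3 and 79.8 times the background in 4T1 DAC and 94.1, 96.9 and 96.7 in 4T1 untreated libraries, against 24.3, 23.5 and 19.4 in B16F10 DAC and 41.5, 37.9 and 34.4 in B16F10 untreated libraries. The lines did not overlap in either arm. Hist1h2ah/Hist1h2bk and Hist1h2ag/Hist1h2bj, shared H2A and H2B promoters, showed the same order of the lines in both arms. Line and library series cannot be told apart.

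In the third Hist1 block, 25 units from Hist1h4h to Hist1h1a, 21 units were called in all 6 B16F10 libraries. The exceptions were Hist1h1d, Hist1h1t and the adjoining Hist1h2bf/Hist1h2ad and Hist1h3d. Hist1h2bf/Hist1h2ad and Hist1h3d shared 1 peak in 4T1, at 82.6, 79.8 and 79.2 times the background in DAC and 97.5, 92.1 and 90.5 in untreated libraries, and had none in any B16F10 library. Hist1h1d, an H1 gene, had no peak in its window in any of the 12 libraries, but its annotated 5′ end lies 1828 bp before its coding start. A peak overlapped the window around that coding start in all 12 libraries, at 59.3 times in 4T1 DAC, 117 in 4T1 untreated, 58.2 in B16F10 DAC and 58.8 in B16F10 untreated libraries (means). The annotated 5′ end of Hist1h2be lies 35168 bp from its coding start, beside Hist1h1e, so both units had the same peak.

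The Hist2 cluster, 9 units and 10 histone genes on chromosome 3, was open at every unit in all 12 libraries and held the highest histone peaks. Hist2h3c2 and Hist2h2aa2, an H3 and an H2A gene that shared 1 peak, reached 179, 176.5 and 182 times the background in 4T1 DAC and 254, 257 and 251 in 4T1 untreated libraries. In B16F10 the same peak reached 132, 128 and 123 in DAC and 148, 169 and 153 in untreated libraries. Its mirror copy, shared by Hist2h2aa1 and Hist2h3c1, had 113, 108 and 110.4 in 4T1 DAC and 155, 156 and 162 in 4T1 untreated libraries. The B16F10 values of that copy were 145, 157 and 156 in DAC and 169.6, 194 and 174 in untreated libraries. The order of the copies thus turned round between the lines, in windows of which 56.6% to 80.6% were repeated words. Hist2h4, an H4 gene with 1.88% repeated words, had 131, 128 and 131 in 4T1 DAC and 165, 168 and 168 in 4T1 untreated libraries, and 87.9, 72.4 and 84.3 in B16F10 DAC and 115, 139 and 106 in B16F10 untreated libraries.

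Hist4h4, which lies outside the large clusters, was higher in 4T1. It stood at 155, 144 and 150.2 times the background in 4T1 DAC and 157, 149.7 and 156 in 4T1 untreated libraries. In B16F10 it stood at 59.3, 56.9 and 53.9 in DAC and 70.2, 82.4 and 82.7 in untreated libraries. Hist3h2ba had a peak in 4T1 alone, at 19.0, 18.6 and 16.9 times in DAC and 13.8, 15.8 and 15.2 in untreated libraries, whereas its neighbour Hist3h2a was open in all 12 libraries. The testis-type pair Hist1h2ba/Hist1h2aa, which codes for histones of developing sperm, also had a peak in 4T1 alone, at 9.34, 11.2 and 9.47 times in DAC and 9.68, 11.7 and 12.2 in untreated libraries. This was the lowest mean height of all called units in untreated 4T1 libraries.

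A test over all 9379 promoter units with a peak in all 12 libraries set these heights against other promoters. The set held 36 of the 54 histone units, and each library's promoters were ranked from 0 to 100 within it. Ranks were compared between the lines by an exact two-sided permutation of the line labels within each arm (400 relabellings, smallest possible p 0.005), with Benjamini-Hochberg adjustment over all 9379. By summit height 25 of the 36 ranked higher in 4T1 at an adjusted p of at most 0.05 (69.4%), against 37.1% of all units, and 0 ranked lower, against 34.2% of all units. At an unadjusted p of at most 0.05 it was 26 higher (72.2%), against 38.5% of all units, and 0 lower, against 35.5%. The median difference, 4T1 minus B16F10, was 13.4 percentile points over the histone units and 0.454 over all units.

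By fold enrichment the same test gave 9 units higher in 4T1 (25%), against 25.9% of all units, and 4 lower (11.1%), against 25.2% of all units. The 4 became 7 without B16F10 DAC library 2 and 2 where the summit had to lie in the window. Hist4h4 had the largest positive difference. Its fold enrichment was 12.7, 12.1 and 12.2 in 4T1 DAC and 12, 11.4 and 11.8 in 4T1 untreated libraries, and 5.86, 5.54 and 5.38 in B16F10 DAC and 5.72, 6.63 and 6.65 in B16F10 untreated libraries. Its rank was 32.5 points higher in 4T1 (adjusted p = 0.0137, exact permutation, higher in 6 of 6 libraries). Hist1h4j had the largest negative difference (-49.1 points, adjusted p = 0.0137, exact permutation), while its summit-height rank was 47.1 points higher in 4T1 (adjusted p = 0.00891, exact permutation). Its fold enrichment was 10.5, 10.1 and 10.4 in 4T1 DAC and 12, 12.1 and 12.5 in 4T1 untreated libraries, and 18.8, 16.7 and 16.1 in B16F10 DAC and 16.2, 16.3 and 18.5 in B16F10 untreated libraries.

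Fold enrichment divides the summit by its local background, and that background was high at histone promoters. Among the 36 units, the median fold-enrichment rank was 8.41 ± 0.596 in 4T1 DAC and 10.6 ± 0.240 in 4T1 untreated libraries, and 9.13 ± 0.884 in B16F10 DAC and 6.40 ± 0.324 in B16F10 untreated libraries (SD, n = 3 each). The median summit-height rank was 77.7 ± 1.37 in 4T1 DAC and 74.3 ± 1.53 in 4T1 untreated libraries, and 55.1 ± 3.56 in B16F10 DAC and 63.5 ± 0.0972 in B16F10 untreated libraries. The median local background of called histone units was 12, 14.2, 9.75 and 12.6 times the genome background in 4T1 DAC, 4T1 untreated, B16F10 DAC and B16F10 untreated libraries, and 3.20, 4.63, 4.80 and 5.46 times over all called units in these groups.

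**Figure D4:**
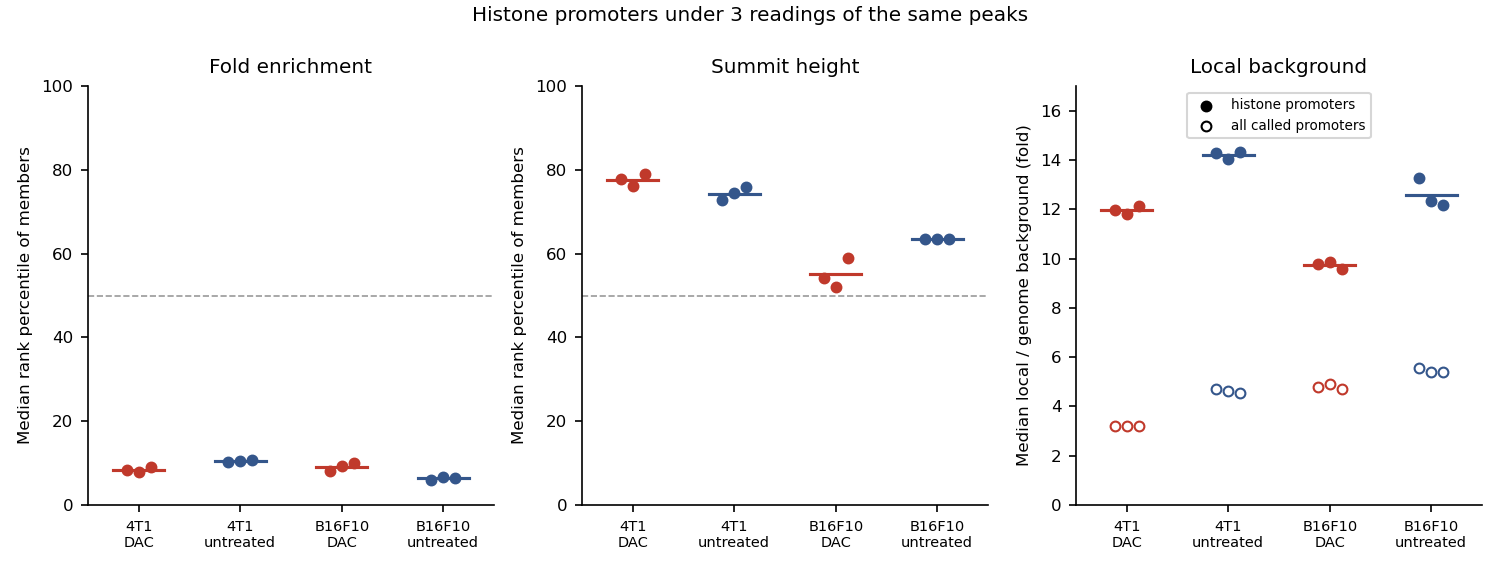
Median over the 36 ranked histone units of the fold-enrichment rank and the summit-height rank (percentile among 9379 promoter units), and median local background over all called units (fold of genome background); filled points are histone promoters, open points all called promoters, 1 point per library, and bars the group means. The histone medians reach at most 10.9 by fold enrichment and are at least 52.1 by height, and their local background is at least 9.59 times the genome background in every library.

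The 5 units of highest fold enrichment were H3 or H4 promoters in untreated 4T1, and so were all but Hist3h2a in untreated B16F10 libraries. Over whole classes, with shared promoters kept apart, H3 and H4 units had the lowest medians. These were 6.04 and 6.26 in untreated 4T1 and 6.06 and 6.36 in untreated B16F10 libraries, over units with a peak. Among units called in all 3 untreated libraries, the highest 4T1 means were 13.4 at Hist1h3e, 12.4 at Hist1h4c, 12.4 at Hist2h4, 12.2 at Hist1h4j and 11.7 at Hist4h4. The lowest were 4.25 at Hist1h3i, 4.42 at Hist1h2ab, 4.71 at Hist1h2bf/Hist1h2ad with Hist1h3d, and 5.27 at Hist1h2ae/Hist1h2bg. Among units called in all 3 untreated B16F10 libraries the highest were 17 at Hist1h4j, 12.8 at Hist1h4c, 12 at Hist1h3e, 11.3 at Hist3h2a and 10.9 at Hist2h4, and the lowest 4.53 at Hist1h4i, 4.70 at Hist1h2af and at Hist1h3g, 5.33 at Hist1h4h and 5.74 at Hist1h2ab, whose mean equals that of Hist1h3b. Among these units Hist1h3e, Hist1h4c, Hist2h4 and Hist1h4j were in the highest 5 of both lines.

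The peaks also ran over the genes. Of the 48 histone genes of at most 1000 bp, 26, 30 and 27 were covered by peaks along their full length in 4T1 DAC and 26 in each 4T1 untreated library, against 12, 12 and 11 in B16F10 DAC and 17, 15 and 15 in B16F10 untreated libraries. Of 670 other protein-coding genes of that length, 3.88% were fully covered in 4T1 DAC library 1 and 3.43% in B16F10 DAC library 1. The summit at shared promoters was counted once per unit and library with a peak. It fell between the 5′ ends of the pair in 12 of 42 cases in 4T1 DAC, 16 of 42 in 4T1 untreated, 13 of 21 in B16F10 DAC and 10 of 32 in B16F10 untreated libraries. Bola1/Hist2h2ab and Hist2h2ac/Hist2h2be had the same peak, which therefore entered for each of them. The share at other shared promoters of the genome is not given.

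The called histone promoters differed between the arms at few units. In 4T1, 1 of 54 units was called in 3 of 3 DAC and 0 of 3 untreated libraries, against 4.32% of all promoter units, and 0 of 54 showed the reverse, against 0.434%. That unit was Hist1h1t, the linker histone gene of spermatocytes. Its fold enrichment was 2.05, 1.62 and 2.02 in the 4T1 DAC libraries, with −log10 q-values of 9.50, 3.67 and 8.29, and it had no peak in any untreated library or in B16F10. The peak was 207 to 287 bp wide, its summit lay 341 to 384 bp inside the gene, and its local background was 8.95 to 9.29 times the genome background. The count was 0 when peaks had to reach a −log10 q-value of 5 or a fold enrichment of 5, or when each library of the line gave the same number of peaks.

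In B16F10, 0 of 54 units had a peak in 3 of 3 DAC and 0 of 3 untreated libraries (0.236% of all units did), and 2 showed the reverse (0.0613% of all units did). These were Hist1h2bq/Hist1h2ao and Hist1h2ap/Hist1h2br of the first Hist1 block. Their heights were 12.9, 13.8 and 12.8 times the background at the pair Hist1h2bq/Hist1h2ao and 10.1, 16.2 and 15.5 at Hist1h2ap/Hist1h2br in the untreated libraries. Both windows consist of repeated words to 100%, so the reads cannot be assigned to one copy with certainty. Without B16F10 untreated library 3 the count was 5.

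Fold-enrichment ranks gave different counts in the lines. In 4T1, 19 of 36 histone units had all 3 DAC ranks below the 3 untreated ranks (52.8%), against 22.8% of all units, and 6 had them above (16.7%), against 31% of all units. These 19 units rested on 15 distinct peaks, and they numbered 12 where the summit had to lie in the window. In B16F10, 2 units lay below (5.56%), against 8.51%, and 10 above (27.8%, on 6 distinct peaks), against 9.89% of all units. The 2 became 8 without B16F10 DAC library 3 and 4 without DAC library 1 or 2, and the 10 became 3 where the summit had to lie in the window. The median shift, DAC minus untreated, was -0.94 points in 4T1 and 0.187 in B16F10. Ranked within the 11232 promoter units called in all 6 4T1 libraries, the 52 histone units among them had a median shift of 0.0141, against 1.11 for all 11232. Of the 52, 14 lay below (26.9%), against 23.5% of all 11232, and 20 above (38.5%), against 33.1%. Ranked within the 9868 promoter units called in all 6 B16F10 libraries, the 36 histone units had a median shift of 0.263, close to the 0.244 of all 9868. Of the 36, 2 lay below (5.56%), against 8.57% of all 9868, and 8 above (22.2%), against 9.94%.

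Summit-height ranks gave the larger count in B16F10. There, 21 of 36 units had all 3 DAC ranks below the 3 untreated ranks (58.3%), against 10.4% of all units, and 1 above (2.78%), against 10.4%. They rested on 16 distinct peaks, and the median shift was -8.81 points. Ranked within the 9868 units, it was -8.68 for the 36 histone units, against -0.0574 for all 9868, and the histone units gave 21 below (58.3%), against 10.4% of all 9868, and 1 above (2.78%), against 10.6%. In 4T1, 14 units lay below (38.9%), against 26.5%, and 9 above (25%), against 29.4% of all units, with a median shift of -0.184. Ranked within the 11232 units, 18 of the 52 histone units lay below (34.6%), against 27.7% of all 11232, and 19 above (36.5%), against 30.4%. Hist1h4h, an H4 gene, had heights of 79.2, 71.9 and 76.4 times the background in B16F10 DAC and 126, 139 and 102 in B16F10 untreated libraries, which did not overlap. Hist1h4a, Hist1h3a and Hist1h1a, which shared 1 peak, had 66.7, 63.9 and 69.7 in B16F10 DAC and 104, 106 and 97.7 in B16F10 untreated libraries. The median height of all called promoter units was also lower in B16F10 DAC (68.5 ± 1.61) than in B16F10 untreated libraries (83.3 ± 2.53). All 10 ranked H4 units had a lower mean height rank in DAC in B16F10, and 7 of them did not overlap. This was not particular to H4. Lower without overlap were also 5 of 8 H3 units, 3 of 5 H2A and H2B pairs, 2 of 3 H2B, 2 of 6 H2A and 1 of 3 H1 units, and the H2B and H3 pair. In 4T1, 5 of the 10 H4 units were higher in DAC without overlap and 1 was lower. The local background of histone units was also lower in B16F10 DAC (9.75 ± 0.140) than in B16F10 untreated libraries (12.6 ± 0.586), and its part in the shift was not tested.

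**Figure D5:**
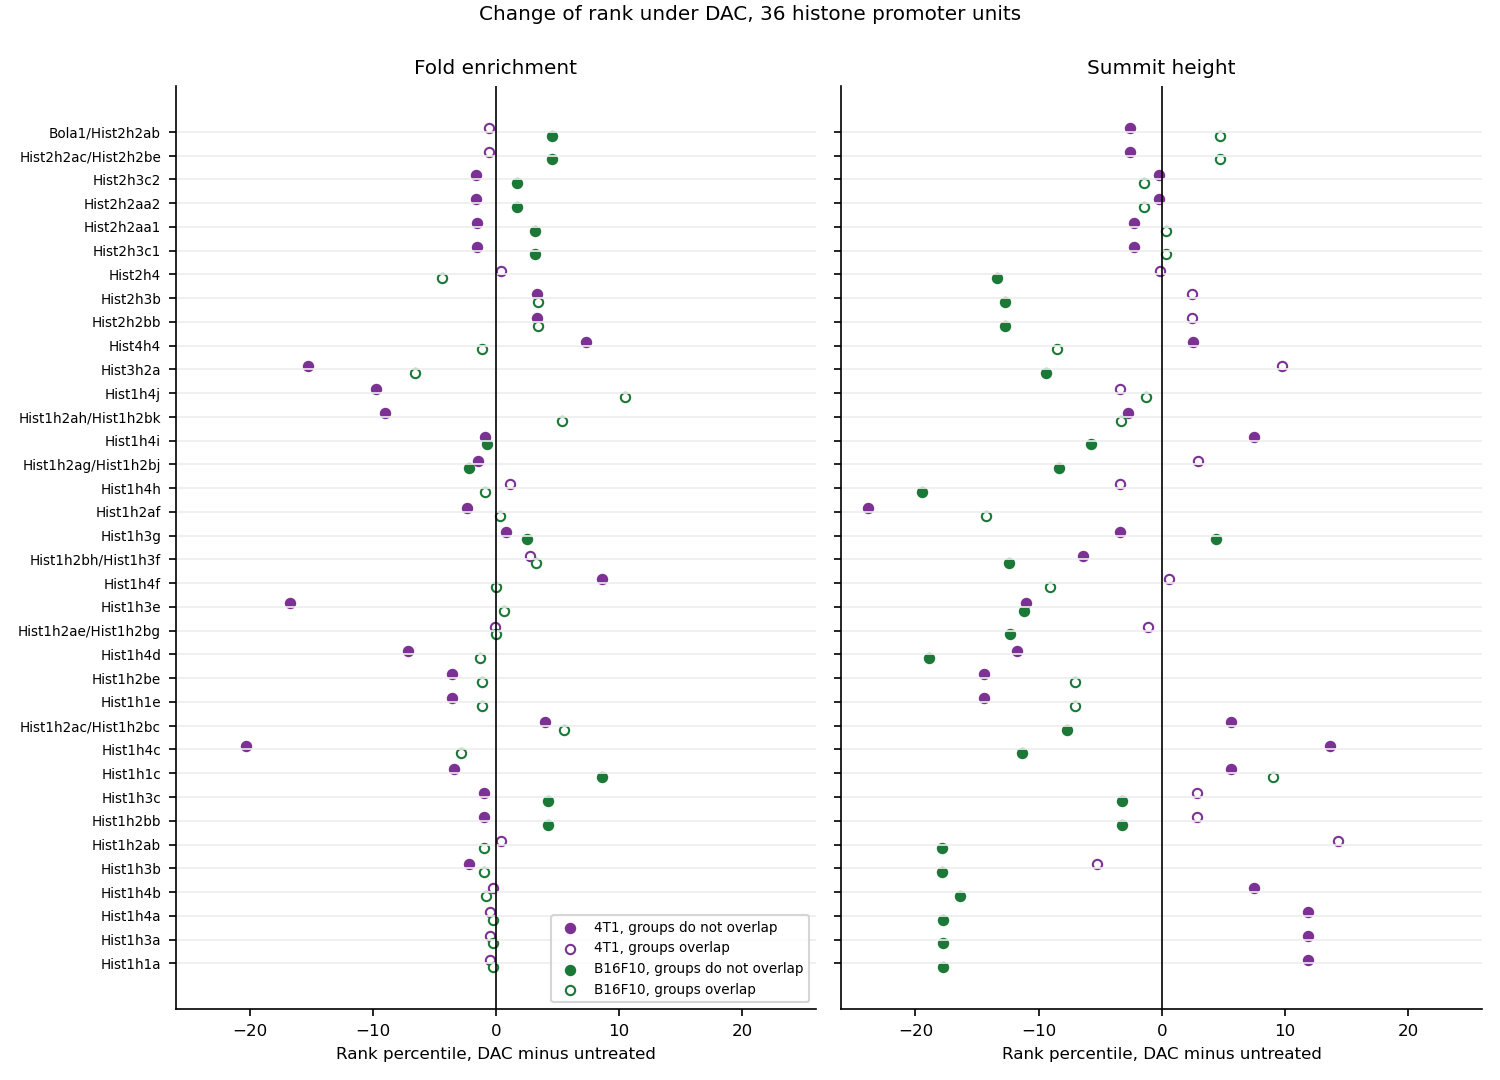
Difference in mean rank percentile, DAC minus untreated, for each of the 36 ranked histone units in genome order, by fold enrichment on the left and summit height on the right; purple is 4T1 and green B16F10, and filled points are units whose 3 DAC libraries do not overlap the 3 untreated libraries. By summit height 21 B16F10 units are filled and negative and 1 is filled and positive.

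A test over both lines could make no call after adjustment. Treatment labels were permuted within each line (exact, two-sided, 400 relabellings, smallest possible p 0.005), with adjustment over 9379 units. By fold-enrichment rank 0 histone units and 0% of all units passed an adjusted p of 0.05 in either direction, with a smallest adjusted p of 0.0728. This was the adjusted value of the smallest possible p, so no unit could pass, whatever its own values. The adjusted counts therefore do not tell whether any unit differed between the arms. At an unadjusted p of at most 0.05, 8 histone units were lower (22.2%), against 11.8% of all units, and 5 higher (13.9%), against 16.1%. By summit height it was 0 in either direction after adjustment, with 10 lower (27.8%), against 14% of all units, and 1 higher (2.78%), against 15.1%, before it. The smallest adjusted p by height was 0.0652, with the same limit. Within 1 line, 3 libraries against 3 cannot give an exact two-sided p below 0.10. A test of the difference between the lines in the DAC effect also gave 0 units at an adjusted p of 0.05 among all 9379 by either measure. There the smallest possible p had an adjusted value of 0.130 by fold enrichment and 0.112 by height, so no unit could pass either. At an unadjusted p of at most 0.05 it was 14 of the 36 histone units by fold enrichment (38.9%), against 18.2% of all units, and 16 by height (44.4%), against 20.6%.

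None of the units with the largest differences over both lines passed the adjusted threshold, which no unit could reach in that test. Hist1h4c, an H4 gene, had fold enrichments of 8.80, 8.34 and 9.49 in 4T1 DAC and 12.9, 11.9 and 12.6 in 4T1 untreated libraries, which did not overlap. In B16F10 they were 12, 11.6 and 10.9 in DAC and 11.9, 13.8 and 12.7 in untreated libraries, which overlapped. Its mean fold-enrichment rank difference over both lines was -11.6 (p = 0.035, adjusted p = 0.150, exact permutation). Its height rank in 4T1 went the other way, at 80.7, 76.1 and 85.7 in DAC and 70.2, 63.7 and 67.4 in untreated libraries. Hist3h2a followed with a difference of -10.9 (adjusted p = 0.0898, exact permutation), Hist1h3e with -8.07, Hist1h4d with -4.22 and Hist1h2be with -2.34. On the other side stood Hist1h2ac/Hist1h2bc at 4.75 (adjusted p = 0.0898, exact permutation), Hist1h4f at 4.31, Hist2h3b with Hist2h2bb at 3.38, and Hist4h4 at 3.10. By summit-height rank the mean differences on this side were all negative, at -1.03, -4.24, -5.14 and -2.98 in the same order. Hist1h4c and Hist3h2a had 1.16 and 0.167 by height. Hist1h3e, Hist1h4d and Hist1h2be stayed negative, at -11.1, -15.3 and -10.7.

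Promoters of genes that serve the histone genes were called alike in both arms. Of 30 units for histone transcription, mRNA processing and chaperones, 0 were called in 1 arm alone. In all 12 libraries 27 were called, against 9379 of all 21205 promoter units. The 27 include Npat (a promoter shared with Atm), the histone locus body organizer, Slbp, the stem-loop binder, and Casp8ap2, a locus body component, with Nfyc, Zfp473 and Coil the exceptions. In the test over both lines by fold-enrichment rank, 0 of 27 passed the adjusted threshold, which no unit could reach. At an unadjusted p of at most 0.05, 14 were higher (51.9%), against 16.1% of all units, and 1 lower (3.70%), against 11.8%. Slbp had mean fold enrichments of 12.7 in 4T1 DAC and 11.5 in 4T1 untreated, and 11.7 in B16F10 DAC and 11.6 in B16F10 untreated libraries, a rank difference of 9.46 (adjusted p = 0.0728, exact permutation). By summit height its rank difference was -0.531 (adjusted p = 0.703, exact permutation). The median difference by fold-enrichment rank was 5.34 for this list, 3.19 for 26 other S-phase genes such as Pcna and Mcm5, -0.000889 for the histone units and 0.558 for all units. Replacement and variant histone genes had 8 of 13 units called in all 12 libraries, 0 in 1 arm alone, and a median difference of 0.173. By summit-height rank the median shift of the histone machinery list was 1.90 in 4T1 and -0.309 in B16F10. That of the S-phase genes was -0.169 in 4T1 and -0.140 in B16F10, so the higher ranks of both lists rest on fold enrichment. Over units called in all 12 libraries, the median local background in untreated libraries was 14.3 times the genome background in 4T1 and 13.5 in B16F10 at the 36 histone units, against 6.13 and 6.36 in the histone machinery list and 6.35 and 7.86 in the S-phase list in the same lines.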

How the data were processed

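ATAC-seq peak lists of 12 libraries, 3 in each of 4 groups, were used as deposited. The submitters' processing notes name ChIPseeker, DiffBind, MACS2, Picard, Bowtie2, MultiQC and FastQC, with no versions, and mm10 as the build. The column meanings follow the narrowPeak format: the authors' peak caller wrote, per library, the fold enrichment over local background, which is a ratio. The deposited −log10 p-values and −log10 q-values belong to each peak within its library. The deposited score is the −log10 q-value multiplied by 10 and cut to a whole number, and the authors' last column gives the summit offset. Labels state only a minimum depth, so read totals per library are unknown.

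Promoters were taken from GENCODE M21 on 21 assembled chromosomes. A unit was called where a peak overlapped its window by at least 1 bp. Over called peaks of a unit the highest fold enrichment was kept. Summit pileup and local background were solved from fold enrichment and p-value. A 32-base word was repeated if it occurs elsewhere in the genome on either strand. Tests used were exact permutations with Benjamini-Hochberg adjustment over 9379 units, tested on simulated data, in Python 3.11.15 with numpy 2.4.6, pandas 2.3.3, scipy 1.17.1 and matplotlib 3.10.9. The simulated data held many strongly shifted units, so they do not show that the treatment test could make calls in the real data.

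Units were named by rule: testis-type genes, units called in 1 arm alone or without a peak in a line, the 5 highest and 5 lowest by untreated fold enrichment per line, the 5 largest and 5 smallest rank differences by DAC and by line, and all Hist2, Hist3 and Hist4 units. The other genes with values were chosen after their values were seen. Members and lists were chosen with earlier results of these data known. H3f3c, 1 of 14 replacement histone genes listed, had no match. Alternatives covered the window, the unit, the overlap, peak thresholds, the strength measure, the set ranked, a replicate block and each library left out. Summit-height ranks were added after seeing the data.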

Additional observations from a re-analysis of the deposited data

Results flagged for a closer look

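Some units moved in opposite directions in the lines, with the 3 DAC libraries of each line apart from its 3 untreated libraries. Values are mean rank differences in percentile points, DAC minus untreated, and the pattern was not tested. Its share over all 9379 units is not given, so it is not called particular to histone promoters. By fold-enrichment rank, 22.8% of all units lay below and 31% above in 4T1, and 8.51% and 9.89% in B16F10. The separate test of the difference between the lines called 0 of 9379 units at an adjusted p of 0.05 (exact permutation). In that test the smallest possible p had an adjusted value above 0.05, so no unit could pass. By fold-enrichment rank the peak of Hist2h3c2 and Hist2h2aa2 shifted by -1.62 in 4T1 and 1.68 in B16F10, and that of Hist2h2aa1 and Hist2h3c1 by -1.51 in 4T1 and 3.15 in B16F10. Hist1h1c, an H1 gene, had -3.42 in 4T1 and 8.64 in B16F10. The peak of Hist1h3c and Hist1h2bb had -0.974 in 4T1 and 4.22 in B16F10.

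By summit-height rank the H4 genes Hist1h4i, Hist1h4c and Hist1h4b had 7.46, 13.7 and 7.52 in 4T1 and -5.76, -11.4 and -16.3 in B16F10, in this order. Hist1h2ac/Hist1h2bc had 5.64 in 4T1 and -7.71 in B16F10. The peak of Hist1h4a, Hist1h3a and Hist1h1a had 11.9 in 4T1 and -17.8 in B16F10. Hist1h3g, an H3 gene, went the other way, with -3.36 in 4T1 and 4.41 in B16F10.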

How the results depend on the processing

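Of the recomputed values 208 held, 32 moved and 4 reversed, and the cause was not tested. Counting every gene by itself gave 4 in untreated B16F10 alone. With the summit required in the window, 3 units were called in 4T1 DAC alone and 1 in B16F10 DAC alone, 12 ranked lower in 4T1 DAC, 3 higher in B16F10 DAC and 2 lower in 4T1 than in B16F10. A −log10 q-value of at least 5, a fold enrichment of at least 5 and equal peak numbers each left 0 units in 4T1 DAC alone. That fold enrichment also gave 9 in untreated 4T1 alone and 1 in B16F10 DAC alone. The median fold enrichment of all called promoter units was 11.9 in 4T1 DAC and 13.2 in 4T1 untreated libraries. Shares over all units are not given for these settings, for −log10 q ranks or for libraries left out. Such counts therefore mark no trait of histone promoters.

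Ranks of −log10 q gave median shifts of -1.92 in 4T1 and -6.62 in B16F10 (reversed), with 3 higher in 4T1 DAC, 14 lower and 4 higher in B16F10 DAC, and 17 higher in 4T1 than in B16F10. Within units called in all 6 libraries the 4T1 shift reversed to 0.0141, with 20 higher. Height ranks, chosen after seeing the data, gave -0.184 in 4T1 and -8.81 in B16F10 (reversed), with 21 lower and 1 higher in B16F10, and 25 higher and 0 lower in 4T1 than in B16F10. Within all 6 libraries they gave -0.15 and 19 higher in 4T1, and -8.68 (reversed), 21 lower and 1 higher in B16F10.

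Leaving out 1 library gave 2 to 5 units in untreated B16F10 alone (5 without untreated library 3) and 4 to 7 lower in 4T1 than in B16F10 (7 without B16F10 DAC library 2). The B16F10 shift was 0.303 to 0.853, with 3 to 8 lower (8 without DAC library 3 and 4 without DAC library 1 or 2). In 4T1 the shift was -1.14 to -0.696, with 19 to 23 lower.

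Same-numbered libraries of the arms showed little shared deviation, with correlations of -0.0369, 0.0235 and 0.0510 in 4T1 and 0.0101, -0.0430 and -0.00663 in B16F10. The labels do not tell whether replicate numbers pair libraries, and these values do not settle it. The replicate block (64 relabellings) gave 0 units lower and 0 higher over both lines. With so few relabellings, a unit could pass the adjusted threshold only if most promoter units tested reached the smallest possible p. The block therefore could not decide whether any unit differed between the arms, and no conclusion is drawn from it. Unknown read totals and near-identical copies limit these values.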
